A study of Homo sapiens with 6 samples.

Results

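The RAB small GTPases are a gene family whose members were chosen by name: a row of the count table belonged when its whole symbol was RAB, digits and at most 1 letter from A to D. This gave 64 genes of the 58735 rows, of which 63 are annotated as protein-coding and 1, RAB1C, as a processed pseudogene. No measured value enters that rule, but the family was picked with earlier results of this comparison in view, so counts over its members are given as description. PANC1OR cells, labelled as oxaliplatin-resistant, were set against PANC1 cells, labelled as untreated, with 3 libraries of RNA in each line; whether PANC1OR cells had the drug at harvest is not stated. PANC1 is an established human line of pancreatic ductal carcinoma. PANC1OR is its oxaliplatin-resistant subline, obtained by raising the concentration of that platinum drug in the medium from passage to passage, and the design text calls its phenotype stable in the absence of chemotherapy. The libraries of a line came from replicate cultures of 1 parental and 1 resistant line, and the spread behind each p-value is therefore that of cultures, which may be technical.

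RAB proteins are molecular switches of membrane traffic. Bound to GTP and anchored to a membrane by a lipid tail, a RAB recruits effectors that move, tether or fuse vesicles; bound to GDP, it is taken back to the cytosol. Guanine nucleotide exchange factors (GEFs) switch RABs on and GTPase-activating proteins (GAPs) switch them off, and each RAB marks its own compartment: RAB5 the early endosome, RAB7 the late endosome, RAB1 and RAB6 the Golgi, and RAB27 and RAB3 the secretory granules and other vesicles that fuse with the plasma membrane. In the exocrine pancreas, RAB3D and RAB27B are known on the granules that store digestive enzymes.

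Before the values, the stretches around annotated start sites of RAB27B, RAB27A and RAB3B are shown. These genes of the secretory branch were higher in PANC1OR and were picked with their values known. RAB3A, RAB10 and RAB37, also grouped under exocytosis and higher, are not shown. Each runs from 250 bases before to 50 bases after a start, 5′ to 3′ on the gene's strand, from RefSeq on GRCh38.p14. Capitals mark matches on either strand to 6 letter patterns that were searched: CACGTG (E-box), TGANTCA (AP-1), TGACGTCA (CRE), GGGCGG (GC box), TATAAA and CCAAT. RAB27B has entries for 2 starts and RAB27A for 5, of which the one nearest the gene's annotated 5′ end is shown.
RAB27B, chr18:54717607-54717906 (+): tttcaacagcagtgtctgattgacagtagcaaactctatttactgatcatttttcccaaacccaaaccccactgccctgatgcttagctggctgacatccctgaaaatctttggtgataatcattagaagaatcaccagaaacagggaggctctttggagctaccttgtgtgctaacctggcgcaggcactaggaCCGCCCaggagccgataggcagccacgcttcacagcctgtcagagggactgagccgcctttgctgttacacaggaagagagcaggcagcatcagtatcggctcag
RAB27B, chr18:54828227-54828526 (+): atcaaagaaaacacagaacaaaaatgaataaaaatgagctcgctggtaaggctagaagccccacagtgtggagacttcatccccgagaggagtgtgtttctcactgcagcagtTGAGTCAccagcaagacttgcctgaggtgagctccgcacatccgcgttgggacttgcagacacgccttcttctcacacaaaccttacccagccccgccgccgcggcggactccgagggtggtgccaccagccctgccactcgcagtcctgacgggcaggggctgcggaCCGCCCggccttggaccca
RAB27A, chr15:55319074-55319373 (-): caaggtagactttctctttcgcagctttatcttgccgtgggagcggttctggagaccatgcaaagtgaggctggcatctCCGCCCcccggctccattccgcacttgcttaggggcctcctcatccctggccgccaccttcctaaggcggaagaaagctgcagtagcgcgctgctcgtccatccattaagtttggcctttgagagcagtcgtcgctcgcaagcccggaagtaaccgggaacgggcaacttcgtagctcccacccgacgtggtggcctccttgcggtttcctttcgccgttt
RAB3B, chr1:51990651-51990950 (-): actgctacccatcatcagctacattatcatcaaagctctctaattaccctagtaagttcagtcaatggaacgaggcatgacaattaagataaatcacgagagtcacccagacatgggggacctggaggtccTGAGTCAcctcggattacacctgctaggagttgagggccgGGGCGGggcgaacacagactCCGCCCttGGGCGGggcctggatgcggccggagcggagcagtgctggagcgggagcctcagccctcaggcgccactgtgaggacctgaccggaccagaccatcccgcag

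The first RAB27B window held 6 CpG dinucleotides, a ratio of observed to base-composition-expected CpG of 0.309. The second held 17, a ratio of 0.656, and the RAB27A and RAB3B windows held 23 and 15, with ratios of 0.878 and 0.581. The median ratio was 0.784 over the 71 windows of the 50 RAB genes with an entry and 0.578 over 34796 windows of all genes. TGAGTCA, a match to the AP-1 pattern, lay in the second RAB27B window and in the RAB3B window. That pattern lay in 11.3% of the 71 RAB windows and in 7.73% of all windows. Among the RAB genes called below, only RAB27A, RAB27B and RAB3B had it, RAB27A in a window not shown. The genes shown are therefore not typical of the higher genes in this pattern. The GC box pattern lay in each of the 4 windows shown, in 73.2% of the RAB windows and in 44.9% of all windows. Of the other patterns, all windows held CACGTG in 7.2%, TGACGTCA in 1.84%, TATAAA in 11.6% and CCAAT in 34.6%, and none of these lay in the 4 windows shown. A match is a description of the letters and not a site of binding.

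The libraries held 12623721 to 26394388 reads counted to genes in PANC1OR and 10199268 to 15875431 in PANC1, and 27848 to 31939 genes had a read. PANC1OR replicate 3 stood apart from the other PANC1OR libraries along base composition: its genes with over 60% GC differed by a median of 1.32 log2 units from the mean of the other PANC1OR libraries, and those under 40% GC by -0.95. PANC1 replicate 2 leaned the same way within its line, by 0.34 and -0.25. The duct keratins KRT8 and KRT18 were abundant, with 429 and 315 CPM (read counts scaled to the TMM-adjusted library size) in PANC1OR and 484 and 338 CPM in PANC1 on average, whereas KRT19 averaged 23.3 CPM in PANC1OR and 326 CPM in PANC1, and CFTR had no read in either line. The 8 duct markers summed to 665 to 1365 CPM in PANC1OR and 1033 to 1926 CPM in PANC1. The 6 acinar markers summed to at most 0.187 CPM in any PANC1OR library and 0.0612 CPM in any PANC1 library, and the 4 endocrine markers to at most 0.413 and 0.436 CPM. The 4 leukocyte markers summed to 2.36 to 5.12 CPM in PANC1OR and 0.489 to 0.731 CPM in PANC1, with CD14 at a mean of 2.84 CPM in PANC1OR and 0.290 CPM in PANC1 and CD3E at 0 in both lines. The 5 fibroblast markers summed to 110 to 292 CPM in PANC1OR and 81.05 to 95.9 CPM in PANC1, nearly all COL1A1. The 3 endothelial markers summed to 0.0826 to 0.187 CPM in PANC1OR and 0.1245 to 0.550 CPM in PANC1. The part of these genes in the RAB results was not tested.

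Of the 64 RAB genes, 53 had enough reads for the test and 15 of these changed at an adjusted p under 0.05: 14 were higher in PANC1OR, RAB4A was lower, and 38 did not pass. RAB37, RAB40A, RAB3A and RAB33A among the 14 passed the read filter only through PANC1OR, which favoured a call in that direction. Over all 18751 genes tested, 17.8% passed, 10.3% as higher in PANC1OR and 7.5% as lower. The test was edgeR's quasi-likelihood test with Benjamini-Hochberg adjustment over all genes tested, and all adjusted p-values below are from it. The median log2 fold change (PANC1OR over PANC1) was 0.20 over the 53 RAB genes and 0.04 over all genes tested; 32 RAB genes had a positive and 21 a negative value. The 3 PANC1OR values lay wholly above or below the 3 PANC1 values for 23 RAB genes, 18 above and 5 below, and for 36.5% of all genes tested. Past the stricter limits of the design text, an absolute log2 fold change over 2 and an adjusted p under 0.01, were RAB27B, RAB27A, RAB39B and RAB40A, 4 of 53, against 6.25% of all genes tested. The count of higher RAB genes was 23 without PANC1OR replicate 3, and 8, 9 and 7 without PANC1 replicates 1, 2 and 3. The count of lower RAB genes was 12 without PANC1OR replicate 3. Over all genes tested, 22.1% were higher and 22% lower without PANC1OR replicate 3. Without PANC1 replicates 1, 2 and 3, 1141 of 19463, 1382 of 19709 and 1103 of 19570 genes were higher. In RNA from a whole culture, more cells with a transcript and more transcript per cell cannot be told apart.

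**Figure D1:**
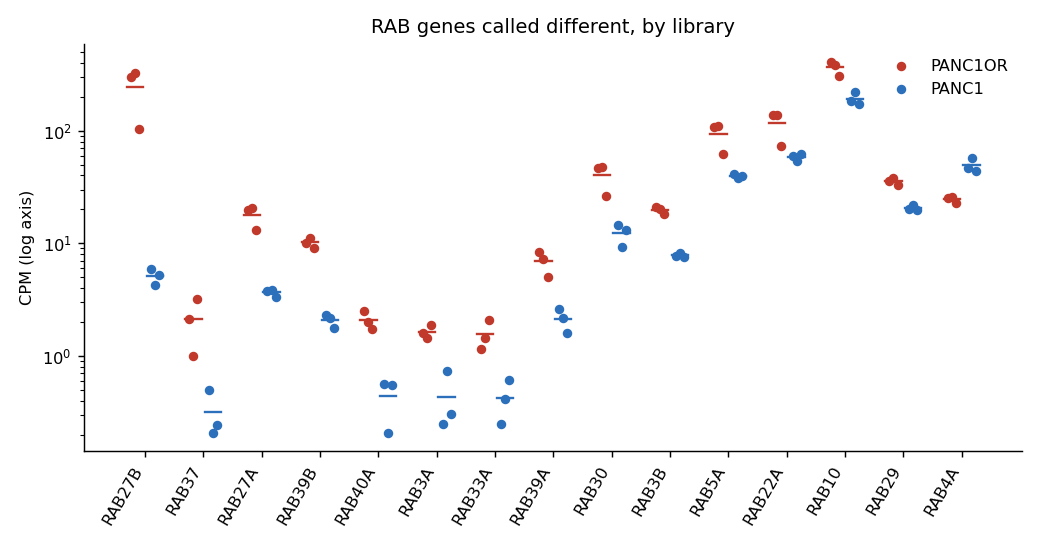
CPM (log axis) in each of the 6 libraries for the 15 RAB genes past an adjusted p of 0.05, PANC1OR left of PANC1, with dots for libraries and lines for the mean of 3. RAB27B is at 104 to 322 CPM in PANC1OR and 4.28 to 5.91 CPM in PANC1, and RAB4A is the gene that is lower in PANC1OR.

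RAB27B and RAB27A, the RABs that dock secretory granules and multivesicular bodies at the plasma membrane, were both higher in PANC1OR. RAB27B (ENSG00000041353, chr18:54717860-54895516, plus strand) had 300.4, 322 and 104 CPM in PANC1OR replicates 1, 2 and 3, against 5.91, 4.28 and 5.2 CPM in PANC1. Every PANC1OR library lay far above every PANC1 library, and PANC1OR replicate 3 was the lowest of its line. The mean was 242 ± 120 CPM in PANC1OR and 5.13 ± 0.82 CPM in PANC1 (SD, n = 3 each), and the log2 fold change was 5.55 ± 0.48 (SE, adjusted p = 0.000178), a 46.9-fold difference. It was the largest fold change of the 53 RAB genes tested. With replicate 3 of PANC1OR left out, the log2 fold change of RAB27B was 5.89 ± 0.15 (adjusted p = 1.12e-07).

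RAB27A (ENSG00000069974, chr15:55202966-55319113, minus strand), the paralog whose loss causes Griscelli syndrome, had 19.9, 20.7 and 13.2 CPM in PANC1OR, against 3.80, 3.86 and 3.36 CPM in PANC1. The groups did not overlap, and the PANC1 libraries lay close together. Its log2 fold change was 2.29 ± 0.26 (adjusted p = 0.000660), or 4.89-fold. Exons of RAB27A share 154 bases with PIGB on the opposite strand and 183 with PIGBOS1 on its own, and the strand setting of the counting is not given, so reads there cannot be told apart. The same holds for exons that RAB3A shares with MPV17L2, RAB5A with PP2D1, and RAB27B, RAB37 and RAB40A with long non-coding RNAs. Within the RAB27 pair, RAB27B made up 96.0%, 96.1% and 92.6% of the level per exon length (RPKM, the CPM divided by the exon length in kilobases) in PANC1OR, against 71.2%, 63.7% and 71.0% in PANC1.

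The RAB3 genes, which act in regulated exocytosis mostly in neurons, endocrine and exocrine cells, included 2 that changed. RAB3B had 20.8, 20.1 and 18.2 CPM in PANC1OR, against 7.78, 8.25 and 7.52 CPM in PANC1. Both lines were tight, and the log2 fold change was 1.33 ± 0.20 (adjusted p = 0.00263). RAB3A, the synaptic vesicle RAB, had 1.61, 1.44 and 1.90 CPM in PANC1OR, against 0.25, 0.73 and 0.31 CPM in PANC1, with a log2 fold change of 2.03 ± 0.44 (adjusted p = 0.0149). RAB3A is a low gene that passed the read filter through PANC1OR, and its adjusted p was 0.0844 without PANC1 replicate 1 and 0.0952 without PANC1 replicate 3. RAB3D, the RAB of zymogen granules, had 46.9, 40.8 and 74.7 CPM in PANC1OR, against 27.8, 29.2 and 30.8 CPM in PANC1; the groups did not overlap, but its log2 fold change of 0.88 ± 0.26 missed the threshold (adjusted p = 0.0503). RAB3C had 1 read in all and was not tested.

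RAB37, a RAB of secretory granules, had 2.13, 1.00 and 3.22 CPM in PANC1OR, against 0.50, 0.21 and 0.24 CPM in PANC1. Its log2 fold change was 2.64 ± 0.56 (adjusted p = 0.0137), from low levels and with the read filter passed through PANC1OR. The adjusted p was 0.0635 without PANC1 replicate 2 and 0.0785 without PANC1 replicate 3. RAB10, which moves vesicles to the basolateral membrane and GLUT4 storage vesicles to the surface, had 402, 385 and 303 CPM in PANC1OR, against 182, 222 and 173 CPM in PANC1. All PANC1OR libraries were higher, and the log2 fold change was 0.92 ± 0.19 (adjusted p = 0.0134), kept without PANC1OR replicate 3 or PANC1 replicate 2. The adjusted p of RAB10 was 0.0649 and 0.0551 without PANC1OR replicates 1 and 2, and 0.0802 and 0.0884 without PANC1 replicates 1 and 3. Of 12 tested genes grouped as acting in exocytosis, 6 were higher and none was lower, against 10.3% and 7.5% of all genes tested, and RAB37 and RAB3A among the 6 passed the read filter only through PANC1OR. RAB8A, RAB8B, RAB12, RAB13, RAB26 and RAB3D did not pass.

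Among genes grouped under the Golgi and its traffic, 4 of 16 tested were higher and none was lower, against 10.3% and 7.5% of all genes tested. RAB33A of these passed the read filter only through PANC1OR. RAB39A is counted here although it is linked to endosomes and autophagy, and RAB39B is both Golgi and endosomal. RAB39B, a Golgi and endosomal RAB on chromosome X whose loss causes intellectual disability with early parkinsonism, had 10.1, 11.2 and 9.17 CPM in PANC1OR, against 2.30, 2.19 and 1.77 CPM in PANC1. Its log2 fold change was 2.28 ± 0.24 (adjusted p = 0.000485), with the lines well apart. Its paralog RAB39A, linked to endosomes and autophagy, had 8.45, 7.31 and 5.04 CPM in PANC1OR, against 2.62, 2.19 and 1.59 CPM in PANC1. The log2 fold change of RAB39A was 1.71 ± 0.31 (adjusted p = 0.00676), so both members of this subfamily were higher. RAB30, which sits on the Golgi, had 46.6, 47.4 and 26.3 CPM in PANC1OR, against 14.5, 9.19 and 13.1 CPM in PANC1. The groups did not overlap, and the log2 fold change was 1.71 ± 0.30 (adjusted p = 0.00584).

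RAB33A, a Golgi RAB found mainly in brain and immune cells, had 1.16, 1.44 and 2.06 CPM in PANC1OR, against 0.25, 0.42 and 0.61 CPM in PANC1. Its log2 fold change of 1.81 ± 0.44 (adjusted p = 0.0248) came from low counts. The adjusted p of RAB33A was 0.0607 without PANC1OR replicate 2, and 0.113, 0.0816 and 0.0511 without PANC1 replicates 1, 2 and 3. Its paralog RAB33B had groups that did not overlap but did not pass. RAB1A, RAB1B, RAB2A, RAB2B, RAB6A, RAB6B, RAB18, RAB34, RAB36, RAB41 and RAB43 also did not pass. Of these, RAB36 was the closest to the threshold, with 2.13, 1.31 and 3.39 CPM in PANC1OR, against 4.42, 4.60 and 5.50 CPM in PANC1 (log2 fold change -1.11 ± 0.36, adjusted p = 0.0688).

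Of the early endosomal RABs, RAB5A and RAB22A, 2 of 7 tested, were higher and none was lower, against 10.3% and 7.5% of all genes tested. RAB5A, which drives fusion of endocytic vesicles with early endosomes, had 107, 109 and 61.8 CPM in PANC1OR, against 41.1, 38.1 and 39.7 CPM in PANC1. Its log2 fold change was 1.23 ± 0.25 (adjusted p = 0.0111). The adjusted p of RAB5A without PANC1 replicate 1, 2 or 3 was 0.0572, 0.0544 and 0.0646. RAB22A, a RAB of early endosomes and of recycling to the surface, had 138, 137 and 73.4 CPM in PANC1OR, against 59.7, 54.0 and 62.5 CPM in PANC1. The log2 fold change of RAB22A was 0.98 ± 0.26 (adjusted p = 0.0363), and of the 6 fits without a library only that without PANC1OR replicate 3 called it; the other 5 gave adjusted p-values of 0.118 to 0.131. Among the paralogs of RAB5A, RAB5B had a log2 fold change of 0.25 ± 0.20 (adjusted p = 0.461), and RAB5C had 26.0, 24.2 and 32.9 CPM in PANC1OR, against 39.3, 66.4 and 39.1 CPM in PANC1 (log2 fold change -0.80 ± 0.27, adjusted p = 0.0827). Neither passed, and the difference between these paralogs was not tested.

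RAB4A, which returns cargo from early endosomes to the plasma membrane by the fast recycling route, was the 1 RAB gene that was lower in PANC1OR. It had 25.4, 25.7 and 22.7 CPM in PANC1OR, against 46.3, 56.9 and 44.2 CPM in PANC1. The groups did not overlap, and PANC1OR replicate 3 lay with the other libraries of its line. The log2 fold change was -0.996 ± 0.20 (adjusted p = 0.00985), and RAB4A stayed below 0.05 in all 6 fits that left out a library, with an adjusted p of up to 0.0444. Its exons share 181 bases with the antisense transcript RAB4A-AS1. The paralog RAB4B was low in both lines, with a log2 fold change of -0.31 ± 0.34 (adjusted p = 0.612), and the slow recycling RABs RAB11A and RAB11B did not pass.

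RAB29, which recruits the kinase LRRK2 to stressed lysosomes and the Golgi, had 36.0, 38.0 and 32.7 CPM in PANC1OR, against 20.0, 22.04 and 19.6 CPM in PANC1. Its log2 fold change was 0.79 ± 0.19 (adjusted p = 0.0226), and of the 6 fits without a library only that without PANC1OR replicate 3 called it; the other 5 gave adjusted p-values of 0.0517 to 0.132. The other 4 late endosomal and lysosomal RABs tested, RAB7A, RAB9A, RAB24 and RAB32, did not pass. RAB40A, whose family carries a SOCS box and serves ubiquitin ligases, had 2.50, 2.00 and 1.73 CPM in PANC1OR, against 0.56, 0.21 and 0.55 CPM in PANC1. It is a low gene that passed the read filter only through PANC1OR. The log2 fold change of RAB40A was 2.16 ± 0.39 (adjusted p = 0.00685), whereas its autosomal relatives RAB40B and RAB40C had -0.61 ± 0.26 (adjusted p = 0.163) and -0.51 ± 0.48 (adjusted p = 0.541). Without PANC1OR replicate 3, RAB40B had -0.74 ± 0.23 (adjusted p = 0.0307) and RAB40C -1.30 ± 0.22 (adjusted p = 0.00202).

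**Figure D2:**
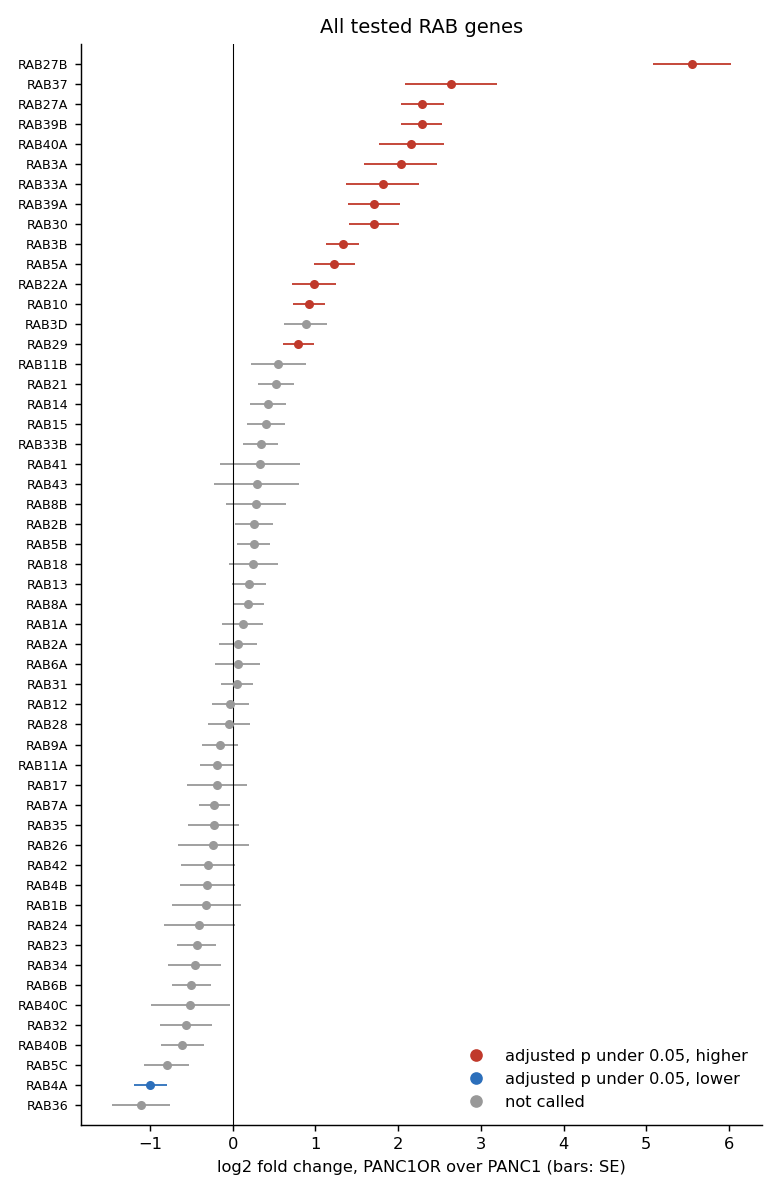
Log2 fold change (PANC1OR over PANC1) of the 53 tested RAB genes, with bars of 1 standard error from edgeR's quasi-likelihood fit. RAB27B is at 5.55 and RAB36 at -1.11, and the 15 genes past the adjusted p of 0.05 are marked.

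Among the 38 tested members that did not pass, log2 fold changes ran from -1.11 (RAB36) to 0.88 (RAB3D). RAB11B, RAB21, RAB14 and RAB15, RABs of early and recycling endosomes, had positive values of 0.55 ± 0.33, 0.53 ± 0.21, 0.43 ± 0.22 and 0.40 ± 0.23. Without PANC1OR replicate 3 these were 0.06, 0.68, 0.60 and 0.17. In that fit RAB21 and RAB14 passed the threshold, and RAB11B and RAB15 did not. RAB32, which directs cargo to lysosome-related organelles, and RAB23, which restrains Hedgehog signalling at the cilium, had -0.56 ± 0.31 and -0.44 ± 0.23. Of the genes with little difference in mean, RAB12 had 35.4 ± 7.38 CPM in PANC1OR and 36.1 ± 2.81 CPM in PANC1, RAB28 17.2 ± 4.57 and 17.8 ± 1.66 CPM, and RAB2A 88.5 ± 23.2 and 84.9 ± 4.43 CPM. PANC1OR replicate 3 was the highest of its line in 23 of the 53 tested members and the lowest in 27.

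The 11 RAB genes below the read filter had few reads over all 3 libraries of a line: RAB9B had 88 in PANC1OR and 25 in PANC1, RAB7B 3 and 10, and RAB20 1 and 9. RAB25, RAB38 and RAB6C had 10, 8 and 4 reads in PANC1OR and 4, 2 and 3 reads in PANC1. RAB19 and RAB1C had 2 and 3 reads in PANC1OR and none in PANC1, and RAB3C, RAB6D and RAB44 had none in PANC1OR and 1, 2 and 1 in PANC1. RAB25 and RAB20 were hardly counted in either line. RAB37, RAB40A, RAB3A, RAB33A and RAB41, 5 of the 53 tested, passed the filter only through their PANC1OR libraries, so for these the filter itself favoured a higher level in PANC1OR.

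Per exon length, RAB10 was the most abundant RAB gene in PANC1OR and the second in PANC1, with a mean of 99.5 ± 14.5 RPKM in PANC1OR and 52.6 ± 7.09 RPKM in PANC1. RAB1B, which acts between the endoplasmic reticulum and the Golgi, averaged 47.9 ± 28.4 RPKM in PANC1OR and 59.7 ± 21.7 RPKM in PANC1, a spread wider than the difference. In PANC1OR it had 32.9, 30.2 and 80.6 RPKM in replicates 1, 2 and 3. Without PANC1OR replicate 3 its log2 fold change was -0.93 ± 0.25 (adjusted p = 0.0176). RAB7A averaged 39.5 and 46.1 RPKM, RAB31 37.8 and 36.5 RPKM, and RAB6A 34.8 and 33.5 RPKM in PANC1OR and in PANC1. None of RAB1B, RAB7A, RAB31 and RAB6A passed the test with all 6 libraries, with adjusted p-values of 0.510 to 0.918. RAB27B averaged 33.9 ± 16.8 RPKM in PANC1OR and 0.717 ± 0.114 RPKM in PANC1, which placed it at rank 8 of 64 in PANC1OR and at rank 43 in PANC1.

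RAB27B made up 5.86%, 6.36% and 2.09% of the summed RPKM of all RAB genes in PANC1OR, against 0.145%, 0.0847% and 0.126% in PANC1. RAB10 made up 15.4%, 14.9% and 11.9% in PANC1OR, against 8.72%, 8.58% and 8.19% in PANC1. The genes grouped under exocytosis, which include both, held 27.3 ± 3.69% of the sum in PANC1OR and 16.7 ± 0.494% in PANC1 (SD, n = 3 each). The Golgi group held 27.2 ± 1.57% in PANC1OR and 32.3 ± 1.28% in PANC1, and the late endosomal and lysosomal group 11.2 ± 1.76% and 15.0 ± 0.769%. The early endosomal group held 15.8 ± 2.00% and 15.2 ± 0.695%, and the recycling group 15.7 ± 2.29% and 17.2 ± 0.611%. The summed RPKM of the family was 697 to 717 in PANC1OR and 570 to 707 in PANC1, and the lines overlapped.

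**Figure D3:**
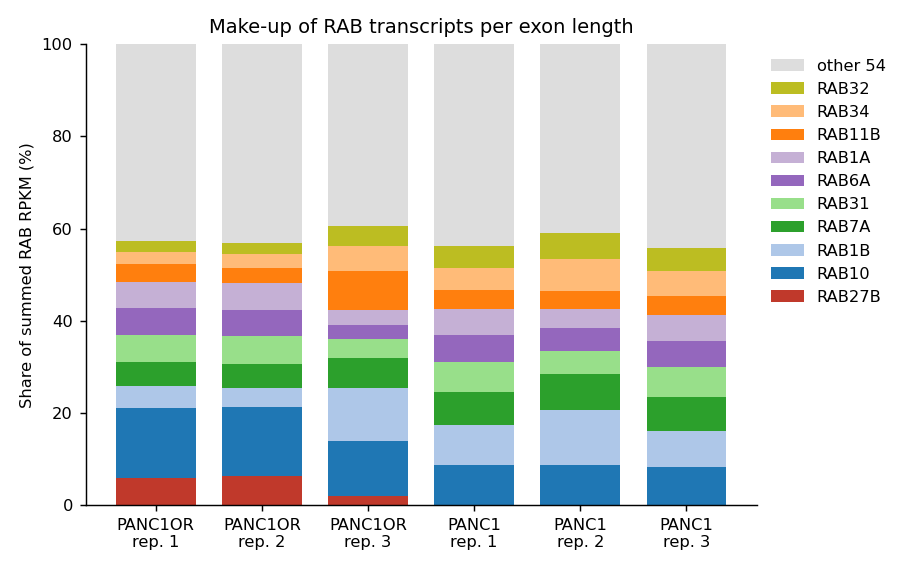
Share of the summed RAB RPKM in each library (percent, bars from 0 to 100), PANC1OR left of PANC1, for RAB27B, the 9 most abundant other RAB genes and the other 54. RAB27B takes 2.09% to 6.36% of a PANC1OR bar and 0.0847% to 0.145% of a PANC1 bar.

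The proteins that RAB27 and RAB3 recruit were counted from a list of effectors. Of 13 RAB27 and RAB3 effectors, singled out after their values were seen, 10 were tested. Of these, 5 were higher and 1 was lower, against 10.3% and 7.5% of all genes tested, and 4 did not pass. Because the genes were picked with their values known, this count is a description only. MLPH, or melanophilin, which ties RAB27A to myosin Va, had 256, 241 and 407 CPM in PANC1OR, against 62.3, 66.5 and 59.2 CPM in PANC1 (log2 fold change 2.27 ± 0.24, adjusted p = 0.000514). SYTL2, the synaptotagmin-like protein that docks RAB27 vesicles, had 505, 498 and 331 CPM in PANC1OR, against 159, 134 and 151 CPM in PANC1 (log2 fold change 1.58 ± 0.22, adjusted p = 0.00173). EXPH5, which acts in exosome release with RAB27B, had 24.9, 25.9 and 14.4 CPM in PANC1OR, against 4.92, 4.80 and 4.34 CPM in PANC1 (log2 fold change 2.21 ± 0.28, adjusted p = 0.00125). In each of these 3 the lines did not overlap.

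MYRIP, which links RAB27A granules to myosin VIIa and actin, went the other way: it had 0.75, 1.19 and 0.83 CPM in PANC1OR, against 4.30, 3.86 and 3.43 CPM in PANC1 (log2 fold change -2.07 ± 0.30, adjusted p = 0.00227). RIMS2 and RIMS1, scaffolds of the synaptic active zone that bind RAB3, had log2 fold changes of 1.20 ± 0.24 (adjusted p = 0.00944) and 2.56 ± 0.44 (adjusted p = 0.00500), RIMS1 at only 1.43 ± 0.13 CPM in PANC1OR and 0.23 ± 0.12 CPM in PANC1. RIMS1, 1 of the 5 effectors counted as higher, passed the read filter only through PANC1OR. RIMS2 was called in 5 of the 6 fits without a library. SYTL1, SYTL3, UNC13D and RPH3AL did not pass. SYTL4, SYTL5 and RPH3A had too few reads for a test.

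**Figure D4:**
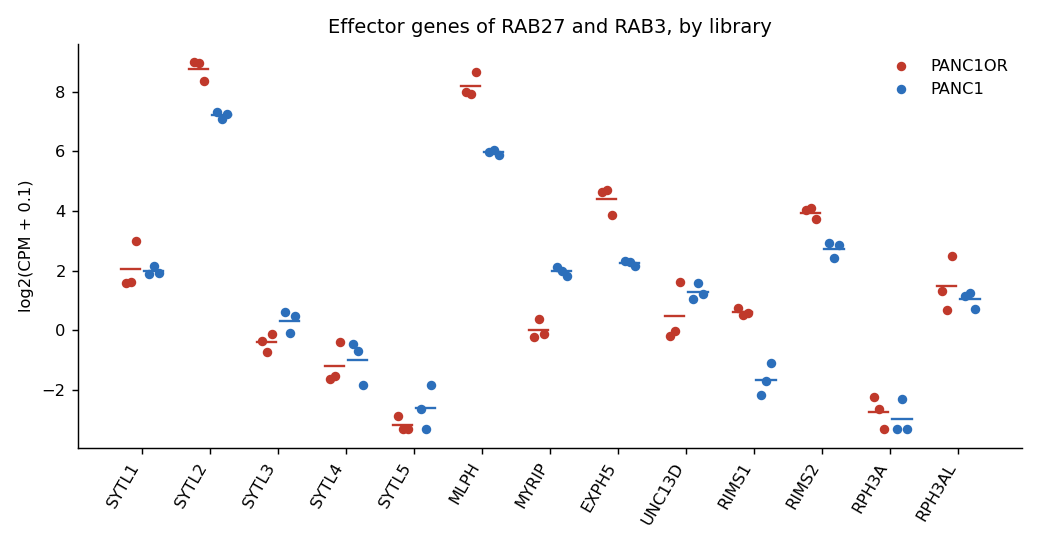
Log2(CPM + 0.1) of 13 RAB27 and RAB3 effectors in each library, PANC1OR left of PANC1, with dots for libraries and lines for means. MLPH, SYTL2 and EXPH5 lie higher in every PANC1OR library, and MYRIP lies lower.

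Over the whole effector list, 60 of 67 were tested, 13 were higher in PANC1OR and 5 were lower, against 10.3% and 7.5% of all genes tested, and the median log2 fold change was 0.29. Without PANC1OR replicate 3 the effectors had 22 higher and 12 lower, and with GC offsets 20 and 12. Over all genes tested, 22.1% were higher and 22% lower without that library, and 18.2% and 21.4% with GC offsets. Besides MLPH and EXPH5, PLEKHM1, an effector of RAB7 at the lysosome, was higher (2.24 ± 0.31, adjusted p = 0.00196), and MICALL2, an effector of RAB13 and RAB8 at cell junctions, was lower (-2.12 ± 0.45, adjusted p = 0.0136) and was called in 4 of the 6 fits without a library. SH3TC2, an effector of RAB11, had 3 reads over the PANC1OR libraries and 72 over the PANC1 libraries; it was named after its values were seen.

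Of 48 tested GEFs, 9 were higher and 1 was lower, against 10.3% and 7.5% of all genes tested, and the median log2 fold change was 0.31. Without PANC1OR replicate 3 the GEFs had 16 higher and 10 lower, and with GC offsets 18 and 7. Over all genes tested, 22.1% were higher and 22% lower without that library, and 18.2% and 21.4% with GC offsets. DENND2A, an activator of RAB9, had 12.8, 12.3 and 21.9 CPM in PANC1OR, against 0.19, 0.10 and 0.31 CPM in PANC1. These rest on 805 reads in PANC1OR and 9 in PANC1, so that the read filter was passed through PANC1OR, and the log2 fold change was 6.15 ± 0.44 (adjusted p = 7.9e-05). RIN2 and RIN1, activators of RAB5, were higher by 1.75 ± 0.19 (adjusted p = 0.000544) and 1.87 ± 0.44 (adjusted p = 0.0218) on the log2 scale. RIN1 was called in 3 of the 6 fits without a library, and stood at 99.1 CPM in PANC1OR replicate 3 against 36.6 and 33.2 CPM in the other PANC1OR libraries. DENND6B, an activator of RAB14, was lower (-2.08 ± 0.54, adjusted p = 0.0315) and was called in 1 of the 6 fits without a library. It had 29 reads in PANC1OR and 103 in PANC1, so that the read filter was passed only through PANC1. MADD, an activator of RAB3 and RAB27, had 91.3, 89.2 and 139 CPM in PANC1OR, against 84.0, 90.7 and 89.5 CPM in PANC1, and did not pass (log2 fold change 0.27 ± 0.22, adjusted p = 0.463); it was named after its values were seen.

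Of 41 tested GAPs, 5 were higher and 2 were lower, against 10.3% and 7.5% of all genes tested, and the median log2 fold change was 0.10. Without PANC1OR replicate 3 the GAPs had 12 higher and 13 lower, and with GC offsets 9 and 10. Over all genes tested, 22.1% were higher and 22% lower without that library, and 18.2% and 21.4% with GC offsets. TBC1D4, also called AS160, the GAP that restrains RAB10 and RAB8A on GLUT4 vesicles until it is phosphorylated, had 23.9, 24.4 and 19.3 CPM in PANC1OR, against 4.67, 3.34 and 3.98 CPM in PANC1 (log2 fold change 2.49 ± 0.24, adjusted p = 0.000289). TBC1D30 was higher by 2.01 ± 0.19 (adjusted p = 0.000282), TBC1D9 by 1.23 ± 0.20 (adjusted p = 0.00351) and TBC1D8B by 1.64 ± 0.42 (adjusted p = 0.0295), the last in 1 of the 6 fits without a library. Of 17 tested genes that prenylate RABs or carry them on and off membranes, 2 were higher and 1 was lower, against 10.3% and 7.5% of all genes tested, with a median log2 fold change of -0.04. Without PANC1OR replicate 3 these had 4 higher and 6 lower, and with GC offsets 3 and 6, beside the same shares of all genes. ARL6IP5 (also PRAF3), of a family of RAB-binding membrane proteins, had 123, 123 and 91.1 CPM in PANC1OR, against 21.8, 24.8 and 20.4 CPM in PANC1 (log2 fold change 2.34 ± 0.21, adjusted p = 0.000209). YIPF4, of the YIP family of Golgi membrane proteins, was higher (log2 fold change 0.79 ± 0.22, adjusted p = 0.0403). PPM1H, a phosphatase that removes the LRRK2 phosphate from RABs, was lower (-0.65 ± 0.19, adjusted p = 0.0461), and each of these was called in 1 of the 6 fits without a library. CHM, CHML, RABGGTA and RABGGTB, which escort RABs to prenylation and attach the lipid, did not pass.

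The 64 RAB genes lie on 22 chromosomes, and 6 are on chromosome X, where 3 of 5 tested were called, against 17.8% of all genes tested; RAB40A and RAB33A of these passed the read filter only through PANC1OR. Genes within 500000 bases of each called member were set beside it, a window chosen after values were seen. Of 9 tested genes near RAB27B, 3 were higher in PANC1OR and none was lower, against 10.3% and 7.5% of all genes tested. All 3 passed the read filter only through PANC1OR, so a call could only be in that direction. CCDC68, on the opposite strand and 5993 bases past the end of RAB27B, had 26.7, 27.7 and 9.91 CPM in PANC1OR, against 0.374, 0.313 and 0.428 CPM in PANC1 (log2 fold change 5.80 ± 0.51, adjusted p = 0.000202). RPSAP57, a pseudogene within RAB27B, and the antisense transcript ENSG00000267112 had no read in PANC1 and 1.87 to 2.72 and 0.748 to 1.24 CPM in PANC1OR; their reads may be shared with RAB27B. TCF4 and C18orf54, the next coding genes farther out, did not pass. Near RAB40A, 12 of 14 tested genes were higher and none was lower, against 10.3% and 7.5% of all genes tested, and some of the 12 had few reads in PANC1. Of the 12, ENSG00000281091, ELF2P1 and TMSB15B passed the read filter only through PANC1OR. Among the 12 were BEX2 (log2 fold change 2.42 ± 0.28, adjusted p = 0.000695) and TCEAL3 (1.98 ± 0.24, adjusted p = 0.000953). The same counts were 6 of 28 higher near RAB3A, 2 of 4 near RAB5A, 2 of 6 near RAB22A and 2 of 14 near RAB10, with 1 lower near RAB10 and none near the other 3. Near RAB27A, RAB39A and RAB30, 1 gene was higher and none was lower. Near RAB39B, RAB33A and RAB3B, 1 gene was lower and none was higher, and near RAB37, RAB29 and RAB4A no gene was called. B3GNT3, JAK3 and MIR3189 near RAB3A, SGO1-AS1 near RAB5A and FAM181B near RAB30, all counted as higher, passed the read filter only through PANC1OR. OTOF near RAB10 and SPRY3 near RAB39B, both counted as lower, passed it only through PANC1. For all of these the filter favoured the direction of the call.

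Because PANC1OR replicate 3 differed along base composition, the RAB values were set beside the GC content of each gene's longest transcript. Leaving it out moved the log2 fold change up in all 25 tested members under 45% GC and down in 21 of 22 over 50% GC. Without it, 54 RAB genes were tested, of which 23 were higher and 12 were lower; over all genes tested the shares were 22.1% and 22%. Of the 23 higher genes, 19 were under 50% GC, and of the 12 lower genes, 11 were over it. The 12 lower genes were RAB4A, RAB1B, RAB5C, RAB6B, RAB17, RAB24, RAB26, RAB32, RAB34, RAB36, RAB40B and RAB40C. Fitting all 6 libraries with GC offsets called 16 RAB genes higher and 9 lower, against 18.2% and 21.4% of all genes tested. Of the 23 higher and 12 lower genes without PANC1OR replicate 3, 15 and 8 were also called in that direction with GC offsets. The 15 genes called with all libraries kept their direction and stayed past the threshold without PANC1OR replicate 3 and with GC offsets.

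**Figure D5:**
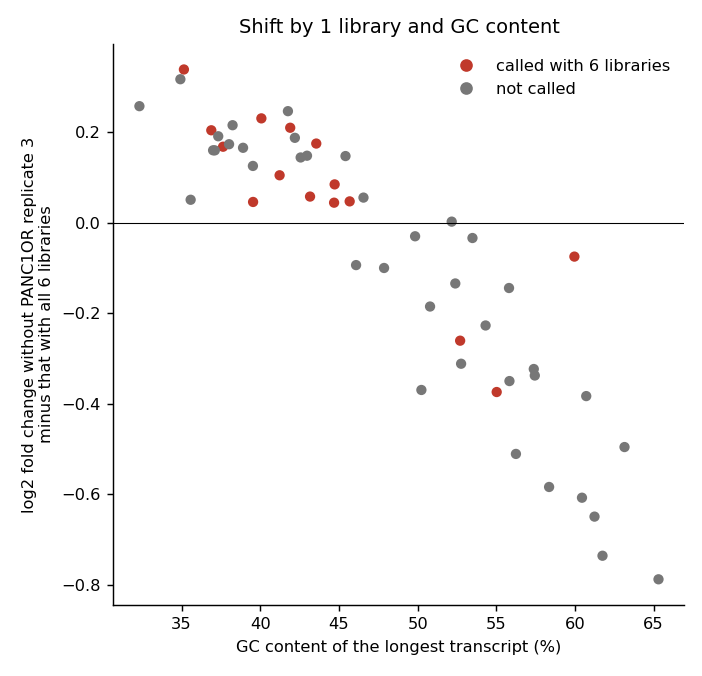
Shift of the log2 fold change of each tested RAB gene when PANC1OR replicate 3 is left out, against the GC content of its longest transcript (percent). All 25 genes under 45% GC move up and 21 of 22 over 50% GC move down, over a range of -0.788 to 0.338.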

How the data were processed

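RNA of 6 cultures was measured, 3 of PANC1OR and 3 of PANC1, grouped by the sample labels. The authors deposited raw read counts per gene, without normalization. Per the submitters' processing notes, reads went through FastQC 0.11.5 and cutadapt, STAR 2.5 mapped them to GRCh38, and featureCounts (Subread 1.6.2) counted them per gene. Not given in the sources used here were the annotation release, the strand setting and the treatment of multiply mapped reads, so paralogs and overlapping genes are uncertain. The count table has 5 further columns, which hold no values.

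From the counts, edgeR 4.0.16 (R 4.3.3) kept 18751 genes with filterByExpr, scaled libraries with TMM and fitted the quasi-likelihood test to all 6 libraries with no covariate. Adjusted p-values are Benjamini-Hochberg over all genes tested, with 0.05 as threshold, and standard errors were derived from the F statistic. CPM use TMM-scaled library sizes, and RPKM divide CPM by the union of exon lengths of GENCODE 44, which also gave positions, overlaps and GC content. Alternatives were DESeq2 1.42.0, its size factors, edgeR's likelihood ratio test, no filter, a replicate block, GC offsets, stricter limits and fits with libraries left out. The fit was tested on simulated data without a shift along base composition, so that test does not bear on such a shift. Total counts of 10199268 to 26394388 per library limit genes near 1 CPM, where few reads carry a value.

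The RAB members and the lists of GEFs, GAPs, prenylation genes, effectors and cell type markers were chosen with earlier results of these data known, as were the alternatives, so no count over a list is independent evidence. Genes were named where they passed 0.05 with a mean of at least 1 CPM, with their subfamily, the 3 RAB genes on each side of the threshold, the 5 most abundant per length, and up to 4 per list by size of change. Other genes given with values, among them further RAB genes that did not pass, were named outside this rule with their values known. No replicate pair of a line agreed within sampling noise. Same-numbered libraries deviated from their line means with correlations of 0.46, -0.45 and -0.22. These cannot decide whether the numbers pair the lines, because PANC1OR replicate 3 and PANC1 replicate 2 also deviated along base composition. The sample labels state no pairing, and none was used in the main fit.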

Additional observations from a re-analysis of the deposited data

How the results depend on the processing

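The count of RAB genes higher in PANC1OR, 14, was 14 with DESeq2's size factors, 15 with DESeq2's Wald test, with edgeR's likelihood ratio test and with no filter, 16 with GC offsets, 4 under the limits of the design text and 30 without PANC1OR replicate 3 and PANC1 replicate 2 together. Leaving out 1 library gave 7 to 23: 23 without PANC1OR replicate 3, 11 without replicate 1 or 2 of PANC1OR, and 8, 9 and 7 without PANC1 replicates 1, 2 and 3. The count of lower genes, 1, was 3 with DESeq2's Wald test and with the likelihood ratio test, 2 with no filter, 9 with GC offsets, 0 under the limits of the design text and 15 without both libraries. Leaving out 1 library gave 1 to 12 lower genes, with 12 only without PANC1OR replicate 3. The replicate block, with numbers that are not known to pair the samples, gave 12 higher and 1 lower. The counts over all genes moved as well. In the main fit, 1939 of 18751 genes were higher and 1406 lower. DESeq2's Wald test gave 2275 and 1792, and the likelihood ratio test 2377 and 1792. GC offsets gave 3404 and 4012, and the replicate block 1402 and 922. Without both libraries, 5664 of 19517 were higher and 5758 lower. Leaving out 1 library gave 1103 to 4340 higher genes and 718 to 4323 lower. The cause of these moves was not tested. Of the RAB genes named by the rule, those whose sign turned were not past the threshold: RAB6A (log2 fold change 0.06) had -0.0056 with the replicate block, -0.10 with GC offsets, and a range of -0.117 to 0.304 without 1 library, negative without PANC1OR replicate 1 or 2. RAB31 (0.05) had -0.063 with GC offsets and a range of -0.0505 to 0.195 without 1 library, negative without PANC1OR replicate 1 or 2. RAB1B (-0.32) had a range of -0.926 to 0.0197 without 1 library, positive without PANC1 replicate 2. Among other members that did not pass, signs turned too, as in RAB43 (0.29, and -0.45 without PANC1OR replicate 3). RAB27B, RAB27A, RAB39B, RAB40A, RAB39A, RAB30, RAB3B and RAB4A, 8 of the 15 called, stayed past the threshold in each of the 6 fits without 1 library. RAB40A of these passed the read filter only through PANC1OR.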
